A study of Mus musculus with 18 samples.

Results

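The class I antigen presentation genes followed here were 10 genes, found by their symbols among the 21859 rows of a table of read counts per gene: the light chain B2m, the heavy chains H2-K1, H2-D1 and H2-T23, the peptide transporter genes Tap1 and Tap2, the loading chaperone Tapbp, the proteasome subunits Psmb8 and Psmb9, and the transcriptional regulator Nlrc5. Bulk RNA sequencing was done on mouse retinal pigment epithelium (RPE), the pigmented cell sheet that supports the photoreceptors. The 18 libraries fell into 4 groups. Young (7 libraries) and Old (4 libraries) were RPE of young and aged mice with no vector named. Old-Control (3 libraries) was RPE of aged mice given AAV2-tTA, and Old-OSK (4 libraries) was RPE of aged mice given AAV2-tTA;TRE-OSK. AAV2 is an adeno-associated virus vector, and tTA is a transactivator that switches on genes placed behind the promoter TRE. OSK stands for Oct4 (gene symbol Pou5f1), Sox2 and Klf4, factors used to reprogram cells. Strain, ages in weeks, vector dose, time after injection and the promoter that drives tTA are not given in the sources used here. Nor do the labels say whether each library came from its own animal, so p-values measure the spread between these libraries, which may be technical.

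Class I molecules show peptides from inside a cell to CD8 T cells and natural killer cells. Proteasomes cut proteins into peptides, the transporter TAP (a dimer of the Tap1 and Tap2 proteins) carries them into the endoplasmic reticulum, tapasin (Tapbp) holds the empty heavy chain beside TAP, and the loaded heavy chain leaves with beta-2 microglobulin (B2m). Interferons raise most of these genes, through transcription factors such as IRF1 and through Nlrc5, which acts at class I promoters. The RPE takes part in restraining immune reactions at the back of the eye.

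Annotated on GRCm38 (GENCODE M21), B2m lies at chr2:122147686-122153083, Nlrc5 at chr8:94434356-94527272 and the other 8 genes on chromosome 17. Psmb9 (34181987 to 34187764, minus strand), Tap1 (34187553 to 34197225, plus strand), Psmb8 (34197721 to 34201454, plus strand) and Tap2 (34203527 to 34216321, plus strand) lie within 34.3 kb. Psmb9 and Tap1 overlap by 212 bases on opposite strands, and whether counting used the strand is not given in the sources used here. Tapbp (33915899 to 33929292) and H2-K1 (33996017 to 34000347) lie on one side of that cluster, and H2-D1 (35262730 to 35267499) and H2-T23 (36029773 to 36032855) on the other.

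The promoter table of RefSeq (GRCm38.p6, 250 bases before to 50 after each start) held 8 of the 10 genes, all but Tap2 and Nlrc5. It was searched on both strands for letters of sites that interferon and NF-kB signalling are known to act through: GAAA, any 2 bases and GAAA for the interferon-stimulated response element (ISRE), TTC, any 3 bases and GAA for the gamma-activated site (GAS), GGG, any 2 bases, TT, any base and CC for an NF-kB site, TGACGC for the CRE-like X2 core of class I promoters and CCAAT for the CCAAT box. The 30-base stretches with an ISRE, GAS or NF-kB match are shown because most of the genes below moved together, B2m least, and interferon is their textbook inducer. They read 5′ to 3′ on the gene's strand, with the matched letters in capitals.
B2m: catGAAACTGAAAatgGGAAAGTCCCtttg
H2-T23: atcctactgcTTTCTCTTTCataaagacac
H2-K1: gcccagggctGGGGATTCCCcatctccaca
H2-D1: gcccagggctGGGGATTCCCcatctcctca
Psmb8: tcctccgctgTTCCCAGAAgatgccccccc

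In B2m (chr2:122147545-122147574, plus strand) the first capitals match the ISRE and the second match the NF-kB letters on the other strand. H2-T23 (chr17:36032806-36032835, minus strand) matched the ISRE on the other strand. H2-K1 (chr17:34000439-34000468, minus strand) and H2-D1 (chr17:35262913-35262942, plus strand) carried the same NF-kB letters, and 29 of the 30 bases shown were identical between them. Psmb8 (chr17:34198088-34198117, plus strand) matched the GAS letters. The RefSeq starts used for these windows differ from the GENCODE loci given above. The stretches of H2-T23, H2-D1 and Psmb8 lie inside those loci, and the stretches of B2m and H2-K1 lie upstream of them. Of the 8 genes, 2 held ISRE letters (3.99% of all 27025 genes in the promoter table did), 1 held GAS letters (9.55%), 3 held NF-kB letters (5.48%), 2 held the X2 core (H2-K1 and H2-D1; 8.37%) and 7 held CCAAT (41.1%). A match describes letters only, and a window without one says nothing about the factor.

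Library totals lay between 18104828 and 32348136 counts, and the 10 genes took 11581 to 52966 counts per library. Pou5f1 stood at 50.1 to 97.4 CPM (counts scaled to a common library total) in the Old-OSK libraries and at 0 to 3.75 CPM in all others, which checks the Old-OSK label. Sox2 stood at 70 to 115 CPM in Old-OSK and at 1.99 to 15.9 CPM in all others. Klf4 did not separate the groups, with 216 CPM in Old replicate 4 and 155 CPM in Old-OSK replicate 4. All 20 RPE markers examined were detected, and their summed level was 52210 to 78440 CPM in Young, 33720 to 56910 in Old, 26410 to 71200 in Old-Control and 20940 to 36430 in Old-OSK. Rod markers, a sign of photoreceptor RNA in the samples, summed to 157.7 to 3087 CPM in Young and 1622 to 19300 CPM in the 11 aged libraries. An M of unstated meaning stands in 6 library names, those of Young replicates 5, 6 and 7, of replicates 2 and 3 of Old-Control and of replicate 4 of Old-OSK. Those 6 had 4040 to 5493 counts of Y-linked genes against at most 93 in any other library, and no Old library carries an M.

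All 10 genes were lowest on average in Young, then Old-Control, then Old, and highest in Old-OSK. The summed level of the 10 was 651.4 to 881.5 CPM in Young, 939.9 to 1220 CPM in Old-Control, 1061 to 1466 CPM in Old and 1643 to 2561 CPM in Old-OSK. Neighbours in that order mostly overlapped. Old-Control stood clear of Young for 2 of 10 genes, H2-K1 and H2-D1 (4.67% of all 15944 genes tested did so upward), and overlapped with Old for all 10 (2.25% of genes stood clear upward and 0.928% downward). Old-OSK stood clear of Old only for B2m (3.7% of genes upward) and clear of Young for all 10 (12.6% of genes upward). In bulk RNA, a change in how many cells of a type are present and a change in RNA per cell cannot be told apart.

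**Figure D1:**
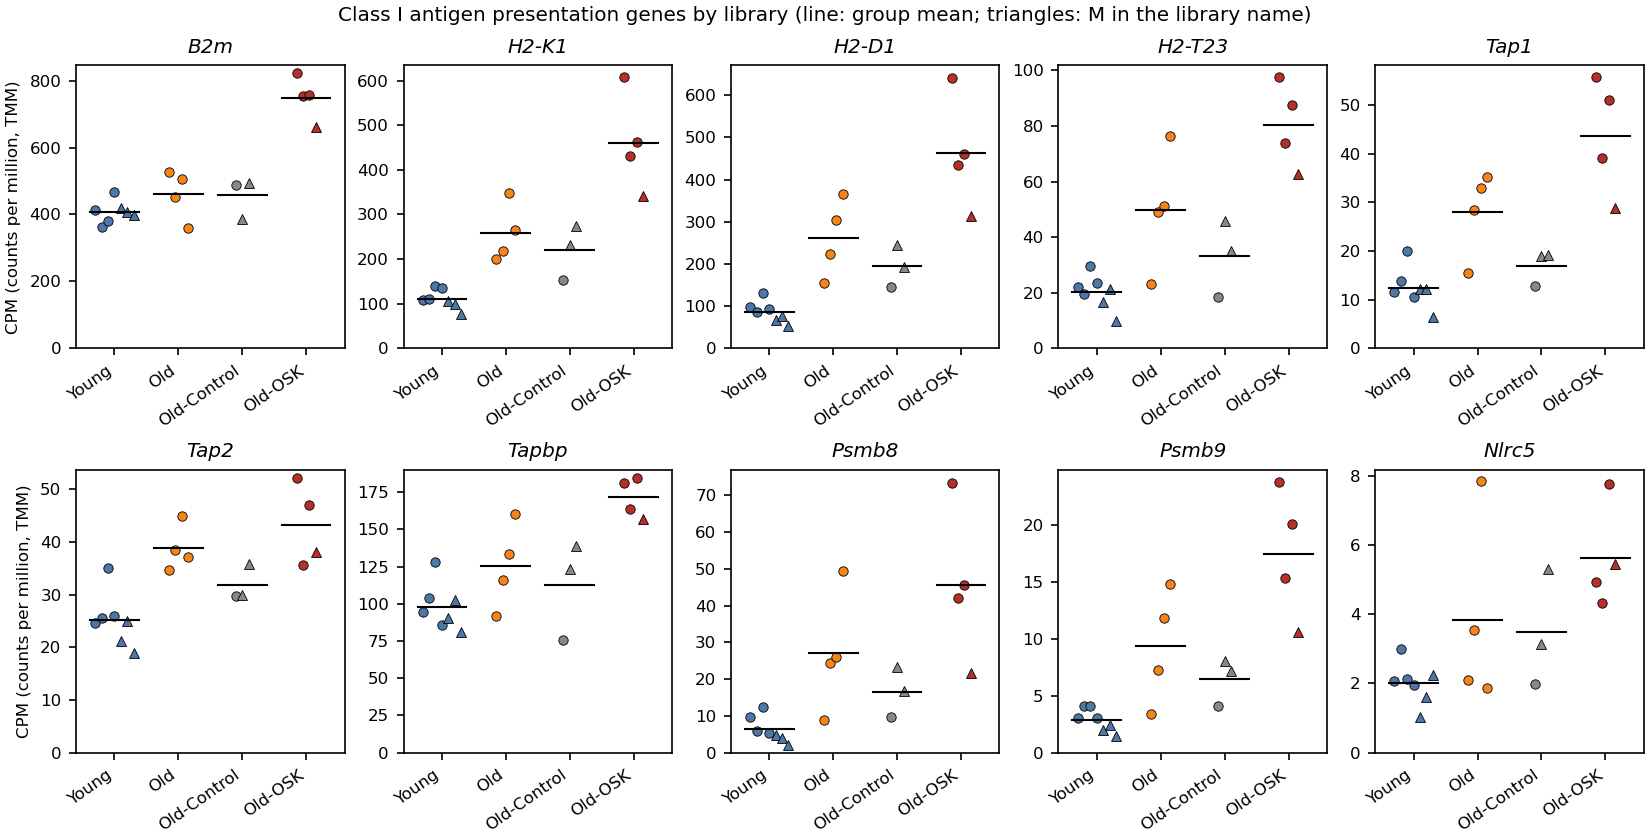
Level of each class I gene in every library (vertical axis, CPM on a linear scale from 0; horizontal axis, the 4 groups; triangles, libraries with M in their names; line, group mean). In all 10 panels the 4 Old-OSK libraries sit above the 7 Young libraries, and Old and Old-Control overlap. The Old and Old-Control means lie between, but single libraries do not always: Old replicate 4 is below Young for B2m, Old-Control replicate 1 is below Young for Tapbp, and Old replicate 3 is above Old-OSK for Nlrc5.

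Per length of the principal transcript, B2m was the most abundant of the 10 in every group, at 473 CPM per kb in Young and 871 in Old-OSK. The classical heavy chains came next, with H2-K1 at 68.6 and H2-D1 at 41.1 CPM per kb in Young and 284 and 220 in Old-OSK. Tapbp stood at 33.8 and 59.2, H2-T23 at 13.8 and 54.6, Tap2 at 7.33 and 12.6, Tap1 at 4.2 and 14.8, Psmb8 at 3.88 and 28.1, and Psmb9 at 2.12 and 12.9 CPM per kb in Young and Old-OSK. Nlrc5 was the scarcest, at 0.264 CPM per kb in Young and 0.742 in Old-OSK. Per length, the ratio of B2m to H2-K1 was higher in Young than in Old-OSK, where both levels were higher. Across the 18 libraries the highest level was 34.4 times the lowest for Psmb8, 16.2 times for Psmb9, 12.2 times for H2-D1, 10.1 times for H2-T23 and 7.8 times for H2-K1, but only 2.29 times for B2m, 2.44 times for Tapbp and 2.76 times for Tap2.

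Old was compared with Young to see how the genes differ with age in groups with no vector named. Young held 3 libraries with M and Old none, so the groups differ in more than age. In Old, 7 of the 10 genes were higher (H2-K1, H2-D1, H2-T23, Tap1, Tap2, Psmb8 and Psmb9) and none was lower, at an adjusted p under 0.05 in edgeR's quasi-likelihood test over all genes. Of all genes tested, 9.56% were called, 5.4% upward and 4.16% downward. The differences ran from 1.54-fold for Tap2 to 4.28-fold for Psmb8. B2m, Tapbp and Nlrc5 did not pass. The median log2 fold change of the 10 was 1.19, against -0.00437 over all genes. Old and Young stood clear of each other for only 2 of the 10 genes, H2-K1 and H2-D1 (3.69% of genes upward), since Old replicate 1 fell within the Young range for most of the others.

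H2-K1 encodes a classical heavy chain found on almost all nucleated cells. It stood at 77.9, 108.9 and 140 CPM in Young (lowest, median, highest) and at 200, 218, 348 and 266 CPM in Old replicates 1 to 4. Every Old library exceeded every Young one, with a log2 fold change of 1.22 (SE 0.19, adjusted p = 0.00176 in edgeR). H2-D1, the other classical heavy chain measured, had a Young range of 52.71 to 130.5 CPM with a median of 85.14, against 154, 224, 304 and 365 CPM in Old. Here too no library overlapped, with a log2 fold change of 1.6 (SE 0.25, adjusted p = 0.00157, edgeR). H2-T23 encodes Qa-1, a nonclassical heavy chain that presents leader peptides of other class I chains to NKG2A receptors. Young libraries had 9.675 to 29.72 CPM (median 21.19) and Old libraries 23.1, 49.1, 51.1 and 76.4 CPM. Old replicate 1 lay inside the Young range and the other 3 above it, for a log2 fold change of 1.30 (SE 0.30, adjusted p = 0.0158 in edgeR).

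The light chain behaved differently in size. B2m stood at 361.7, 408 and 466.3 CPM in Young (lowest, median, highest) and at 528, 452, 505 and 359 CPM in Old replicates 1 to 4. Old replicates 1 and 3 exceeded all Young libraries and Old replicate 4 lay below them all, although that library had the highest H2-D1 and H2-T23 of its group. The log2 fold change of 0.18 (SE 0.11) did not pass (edgeR adjusted p = 0.292).

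Of the loading genes, Tap1 had 6.412, 12.09 and 20.01 CPM in Young (lowest, median, highest) and 15.4, 28.4, 32.9 and 35.2 CPM in Old. Only Old replicate 1 overlapped with Young, and the log2 fold change was 1.17 (SE 0.26, adjusted p = 0.0133 in edgeR). Tap2 had 18.9 to 35.14 CPM in Young (median 24.99) and 34.7, 38.6, 45.0 and 37.1 CPM in Old. The overlap came from a single Young library (replicate 3), and the difference was smaller than for its dimer partner, at 0.62 (SE 0.14, adjusted p = 0.0158, edgeR). Tapbp stood at 98.01 ± 15.6 CPM in Young (SD, n = 7) and 125.6 ± 29.1 CPM in Old (SD, n = 4). Its log2 fold change was 0.36 with an SE of 0.16, which did not pass (edgeR adjusted p = 0.158). Nlrc5 had 2.002 ± 0.597 CPM in Young and 2.11, 3.55, 7.85 and 1.88 CPM in Old. Only Old replicates 2 and 3 lay above the Young maximum of 2.987 CPM, and the log2 fold change of 0.94 (SE 0.37) did not pass (adjusted p = 0.105, edgeR). Without Old replicate 3 it was 0.32 (adjusted p = 0.563, edgeR), and without Old replicate 4 that of Tapbp was 0.22 (adjusted p = 0.535).

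Psmb8 and Psmb9 encode the interferon-inducible catalytic subunits LMP7 and LMP2 of the immunoproteasome, which favours peptides that fit class I grooves. Psmb8 stood at 2.137, 5.348 and 12.31 CPM in Young (lowest, median, highest) and at 8.76, 24.4, 26.1 and 49.4 CPM in Old. Old replicate 1 lay within the Young range, and the log2 fold change was the highest of the 10 genes, 2.10 (SE 0.45, adjusted p = 0.0112 in edgeR). Psmb9 had 1.462 to 4.076 CPM in Young (median 3.011) and 3.40, 7.21, 11.9 and 14.8 CPM in Old. The same library overlapped, and the log2 fold change was 1.70 (SE 0.35, adjusted p = 0.00873, edgeR).

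The count of 7 depended on which libraries were used. Without Old replicate 4, which held the highest level of 6 of the 10 genes in its group, 3 genes passed (H2-K1, H2-D1 and Tap2). Without Old replicate 3, 6 passed, with Tap2 at an adjusted p of 0.0519, and with the M libraries left out 2 passed (H2-K1 and H2-D1). Among Young libraries those with M were the lower ones for several genes: H2-D1 stood at 52.71 to 77.01 CPM in the 3 with M and at 85.14 to 130.5 CPM in the 4 without, and Psmb8 at 2.137 to 4.688 and 5.348 to 12.31 CPM.

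What OSK adds to the vector in aged RPE was read from Old-OSK against Old-Control. B2m was higher in Old-OSK by 1.64-fold, the 1 gene of 10 called in edgeR's quasi-likelihood test (0.728% of all genes were called, 0.408% upward). All 10 were higher on average in Old-OSK, from 1.36-fold for Tap2 to 2.76-fold for Psmb8, and 9 of 10 had an unadjusted p under 0.05, as did 4194 of the 15944 genes. The median log2 fold change of the 10 was 1.16, against -0.0278 over all genes. All Old-OSK libraries stood above all Old-Control libraries for 7 of the 10 genes (6.55% of genes did so upward). The 3 with overlap were Tap2, Psmb8 and Nlrc5.

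For B2m the Old-Control libraries had 488, 387 and 495 CPM and the Old-OSK libraries 823, 754, 757 and 663 CPM. The lowest Old-OSK library exceeded the highest of all the other 14 libraries, which was 528 CPM, and the log2 fold change was 0.71 (SE 0.14, adjusted p = 0.0222 in edgeR). With equally numbered libraries treated as pairs, the log2 fold change of B2m was 0.77 (adjusted p = 0.0735) and Tap1 was the gene that passed (1.52, adjusted p = 0.0483, edgeR with replicate block). The call of B2m was lost without Old-Control replicate 1 or without any 1 of Old-OSK replicates 1, 2 and 3, and held in 3 of 7 such fits (adjusted p 0.0182 to 0.105, and 0.00037 to 0.189 over the other alternatives).

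H2-K1 stood at 153, 232 and 273 CPM in Old-Control and at 608, 431, 461 and 341 CPM in Old-OSK. The groups did not overlap, but the log2 fold change of 1.07 (SE 0.25) fell short of the threshold (edgeR adjusted p = 0.0558). H2-D1 had 146, 246 and 193 CPM in Old-Control and 642, 435, 461 and 315 CPM in Old-OSK. Again the groups did not overlap, with a log2 fold change of 1.25 (SE 0.32, adjusted p = 0.0677 in edgeR). H2-T23 had 18.5, 45.7 and 35.1 CPM against 97.4, 73.9, 87.5 and 62.6 CPM, also without overlap, for a log2 fold change of 1.28 (SE 0.38, adjusted p = 0.0831, edgeR). For each heavy chain the highest library was Old-OSK replicate 1 and the lowest of the 7 was Old-Control replicate 1.

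Tap1 stood at 12.8, 19.0 and 19.1 CPM in Old-Control and at 55.7, 39.0, 51.1 and 28.9 CPM in Old-OSK. The groups did not overlap, and the log2 fold change was 1.36 (SE 0.33, adjusted p = 0.0631 in edgeR). Tap2 had 29.8, 29.9 and 35.8 CPM against 52.1, 35.7, 47.1 and 38.1 CPM. Old-OSK replicate 2 lay just under the highest control library, and the log2 fold change was 0.44 (SE 0.18, adjusted p = 0.136 in edgeR). Tapbp had 75.8, 124 and 139 CPM in Old-Control and 181, 164, 185 and 157 CPM in Old-OSK, a log2 fold change of 0.61 (SE 0.20, adjusted p = 0.0969, edgeR). Its groups did not overlap either, although Old-Control replicate 1 stood far below the other controls.

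Psmb8 had 9.67, 23.2 and 16.8 CPM in Old-Control and 73.4, 42.2, 45.6 and 21.6 CPM in Old-OSK. Old-OSK replicate 4 fell within the control range, and the log2 fold change was 1.46 (SE 0.58, adjusted p = 0.132 in edgeR). Psmb9 had 4.07, 8.05 and 7.14 CPM against 23.7, 15.3, 20.1 and 10.6 CPM. These groups stood apart, with a log2 fold change of 1.44 (SE 0.45, adjusted p = 0.088 in edgeR). Nlrc5, at 1.99, 3.15 and 5.32 CPM in Old-Control and 4.94, 4.32, 7.77 and 5.46 CPM in Old-OSK, overlapped and differed least clearly (log2 fold change 0.69, SE 0.46, adjusted p = 0.367, edgeR).

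**Figure D2:**
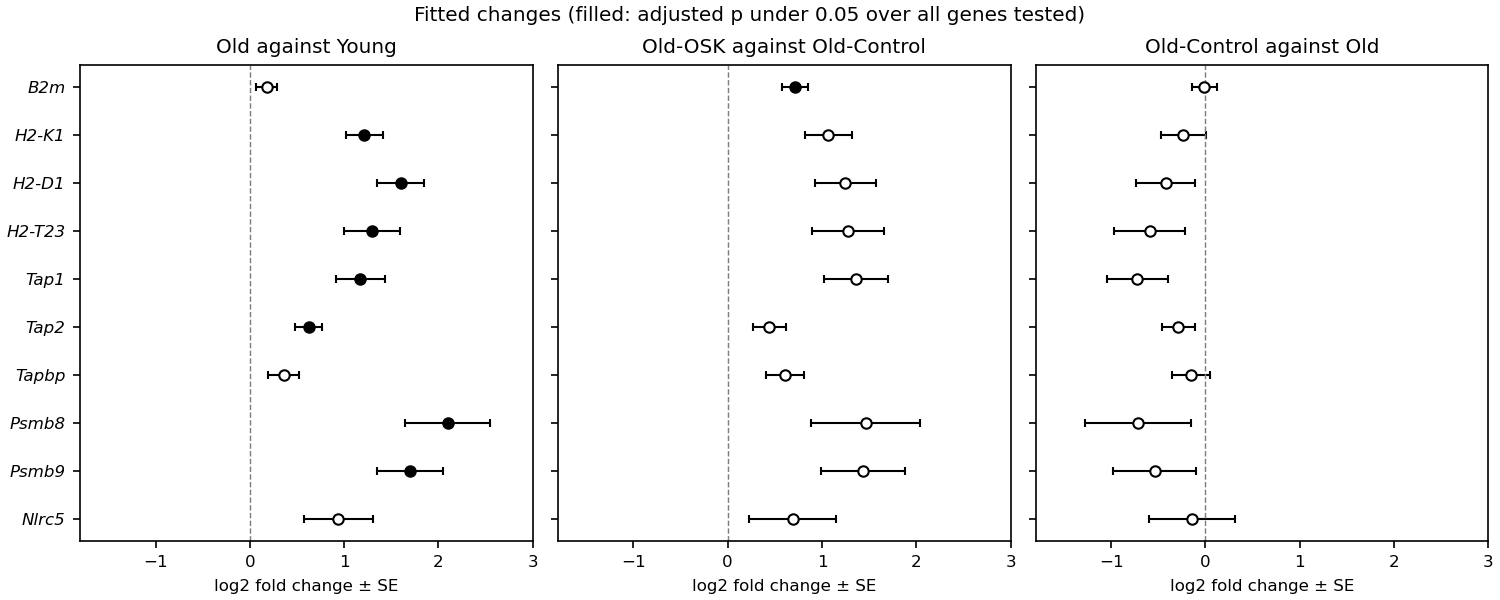
Log2 fold change of each class I gene (points, with SE bars; filled, adjusted p under 0.05 over all genes) for age (left, Old against Young), OSK (middle, Old-OSK against Old-Control) and vector alone (right, Old-Control against Old), from edgeR fits over all 18 libraries. All 10 points lie above 0 in the first 2 panels, where B2m is nearest to 0 with age (0.18) and the only filled point with OSK (0.71), and below 0 in the last.

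The number of genes called with OSK moved with single libraries. Without Old-Control replicate 2 or without Old-OSK replicate 4 (the M library, lowest of its group for 8 of the 10 genes) 6 genes passed, and without Old-Control replicate 1 or any 1 of Old-OSK replicates 1, 2 and 3 none did. DESeq2 on the same counts called 7 genes, and edgeR on the 2 groups alone, or with M as a covariate, called 0. Without the M libraries, which leaves 1 control, log2 fold changes were 1.71 for H2-K1, 2.22 for H2-T23, 1.22 for Tapbp, 2.47 for Psmb8, 2.27 for Psmb9 and 1.5 for Nlrc5, and with M as a covariate that of Psmb8 was 0.90. Without Old-Control replicate 1, Tapbp was at 0.39 and Nlrc5 at 0.41, and without Old-Control replicate 3 Nlrc5 was at 1.12.

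The effect of vector alone was read from Old-Control against Old. None of the 10 was called in edgeR's test, nor was any of the 15944 genes (percent called 0), and DESeq2 also called none of the 10. Unadjusted, 596 genes had a p under 0.05, among them Tap1 (log2 fold change -0.72, SE 0.33, adjusted p = 0.9). All 10 fold changes were below 0, with a median of -0.355 (0.0372 over all genes), from -0.01 for B2m to -0.72 for Tap1 and Psmb8. In Old-Control, replicate 1 was the lowest library for 9 of the 10 genes. These Old-Control libraries also serve as the reference for Old-OSK, so a low level there enters both comparisons.

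Whether OSK and age acted on the genes by different amounts was tested as the difference between (Old-OSK minus Old-Control) and (Old minus Young), comparisons that share no library. None of the 10 differed in edgeR's test (0.32% of all genes did). B2m came closest, with 0.71 against 0.18 and a difference of 0.53 on the log2 scale (SE 0.18, unadjusted p = 0.00789, adjusted p = 0.309), the 1 gene of the 10 with an unadjusted p under 0.05. For the heavy chains the difference was -0.15 for H2-K1 (SE 0.31), -0.35 for H2-D1 (SE 0.40) and -0.02 for H2-T23 (SE 0.47). Without the M libraries the difference changed sign for 7 of the 10, all uncalled there too.

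Within a group, single libraries were often the highest or the lowest for most of the 10 genes. Young replicate 3 was the highest of its group for 8 of 10 genes and Young replicate 7 the lowest for 8. Old replicate 1 was the lowest for 8, and Old-OSK replicate 1 the highest for 8. Other ranks were mixed: Old replicate 4 was the highest for 6 and the lowest for 2. In Old-Control, replicate 3 was the highest for 6 and replicate 2 for 4. Over the 18 libraries, the log2 CPM of a gene correlated with the mean of the other 9 at r = 0.979 for H2-K1, 0.976 for H2-D1 and for Psmb9, 0.966 for Tap1, 0.957 for H2-T23, 0.942 for Psmb8, 0.919 for Tap2 and 0.896 for Tapbp. B2m (0.692) and Nlrc5 (0.758) followed the rest least. These correlations describe libraries that share group, depth and scaling. They run over all 4 groups, so they do not separate variation within a group from differences between groups. Near-identical sequence can also tie values together: 28.8% of the 50-base stretches of the H2-T23 transcript, 14.3% of those of H2-D1 and 8.79% of those of H2-K1 occur in another gene, mostly other class I genes, so reads of the heavy chains may be partly exchanged or lost. B2m, Psmb8, Psmb9 and Nlrc5 share no such stretch read on the same strand. Opposite strands were not compared, so the 212 bases where the Psmb9 and Tap1 loci overlap are not covered.

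The catalytic subunits Psmb8, Psmb9 and Psmb10 replace Psmb5, Psmb6 and Psmb7 when an immunoproteasome is built, so each pair was also read as a ratio of counts within a library, which needs no scaling between libraries. Counts of Psmb8 as a percentage of those of Psmb5 were 3.19 to 23.1% in Young, 14.4, 39.6, 46.5 and 73.3% in Old, 13.3, 41.8 and 25.1% in Old-Control, and 97.7, 64.5, 74.6 and 37.8% in Old-OSK. In Old the ratio was 4.15 times that of Young (2.05 on the log2 scale, two-sided exact permutation p = 0.00909, adjusted p = 0.0304 over 6 ratio tests), although Old replicate 1 lay within the Young range. Psmb9 to Psmb6 stood at 1.3 to 4.79% in Young and 3.24, 6.66, 11 and 13% in Old, 1.46 higher on the log2 scale (exact permutation p = 0.0152, adjusted p = 0.0304). Psmb10 to Psmb7 stood at 13 to 25.1% in Young and 18.4, 25.7, 34.5 and 36.9% in Old, 0.77 higher (exact permutation p = 0.0152, adjusted p = 0.0304).

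In Old-OSK against Old-Control the log2 ratio of Psmb8 to Psmb5 was higher by 1.43 (exact permutation p = 0.0857), that of Psmb9 to Psmb6 by 1.41 and that of Psmb10 to Psmb7 by 0.61 (exact permutation p = 0.0571, adjusted p = 0.0685 for each of the last pair). With 4 libraries against 3 the smallest p this test can give is 0.0286. The constitutive subunits were not called in either comparison: with age the log2 fold change was -0.01 for Psmb5, 0.11 for Psmb6 and -0.15 for Psmb7, and with OSK it was -0.01, 0.03 and -0.13. Of the 3 inducible subunits, all were called with age (Psmb10 at 0.68, edgeR adjusted p = 0.0267). Without Old replicate 4 the 3 age ratios were 1.73, 1.19 and 0.64, and none passed after adjustment. Of the 11 tests that left out a library, the ratio of Psmb8 to Psmb5 passed in 9, that of Psmb9 to Psmb6 in 3 and that of Psmb10 to Psmb7 in 4. For these and the other alternatives, each ratio p was adjusted beside the p-values of the other ratio tests with all libraries kept.

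**Figure D3:**
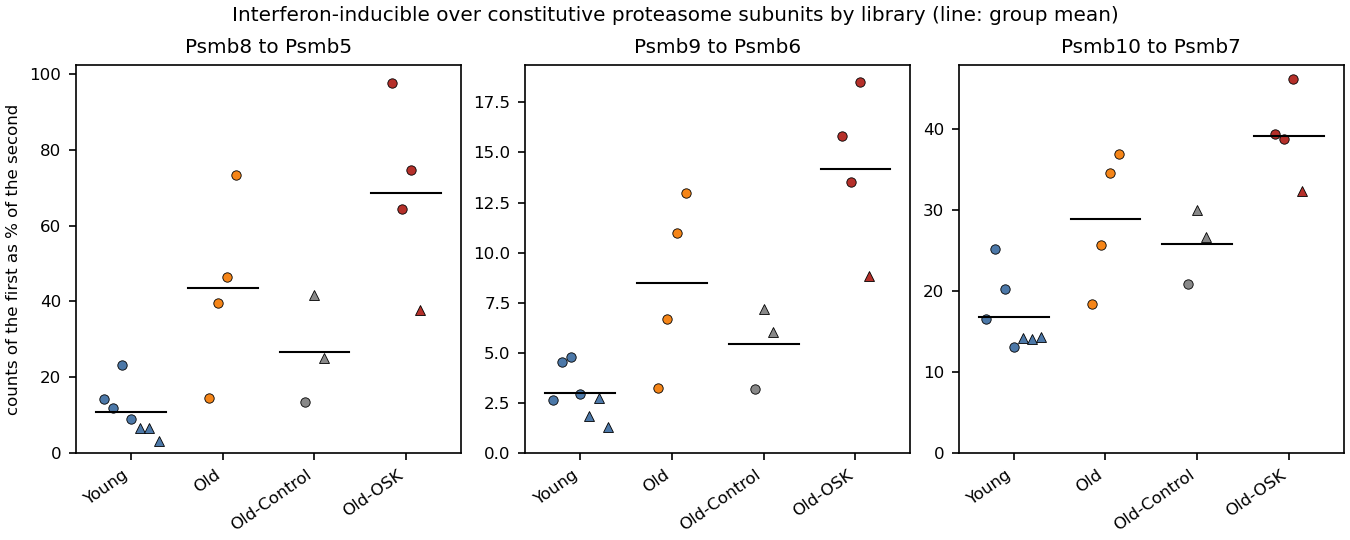
Counts of an interferon-inducible proteasome subunit as a percentage of those of the constitutive subunit it replaces, by library (3 panels, linear axes from 0; triangles, libraries with M in their names; line, group mean). Psmb8 reaches 97.7% of Psmb5 in an Old-OSK library and 3.19% in the lowest Young library.

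Other genes of the class I pathway were counted in the same way. Of 14 other class I and class I-like genes tested, 5 were higher in Old than in Young and none lower (median log2 fold change 0.24), beside 5.4% and 4.16% of all genes. The lowest p belonged to H2-M2, which rose from a mean of 0.0568 to 3.146 CPM (edgeR adjusted p = 6.09e-05), followed by H2-Q6 (1.72), H2-Q7 (1.56) and H2-Q4 (1.24). Of 18 other genes of peptide supply and loading, 3 were higher and 1 lower, with a median of 0.00556. The share lower was near that of all genes. The 3 were Psmb10 (0.68), and Psme2 (0.71) and Psme1 (0.41), which encode the interferon-inducible proteasome activator PA28. The 1 lower gene was Lnpep, an aminopeptidase used in cross-presentation, which fell by 0.37 on the log2 scale (edgeR adjusted p = 0.00491). With OSK none of these 32 genes was called, beside 0.728% of all genes. Psme1 had the lowest p of the supply genes (0.66, SE 0.16, adjusted p = 0.0588 in edgeR), and H2-T22 of the class I-like genes (0.68, SE 0.18, adjusted p = 0.0709).

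Interferon signalling genes and interferon-stimulated genes were examined because they share an inducer with class I. Of 29 genes for interferon receptors, signal transducers and class I transcription factors, 6 were higher in Old than in Young and none lower. Of all genes, 5.4% were higher and 4.16% lower. Among the 6 were Irf8 (1.34), Irf7 (1.74) and Nfkbia (0.59). Of 30 interferon-stimulated genes tested, 21 were higher in Old and none lower (median 1.04), beside the same 5.4% and 4.16%. Among the 21 were Rtp4 (1.29), Ifit1 (1.44), Ifi27 (0.87) and Irgm1 (0.87). In Old-OSK against Old-Control none of the 30 was called, beside 0.728% of all genes. All 30 had a fold change above 0 (median 0.762), against 47.1% of all genes. An unadjusted p under 0.05 in edgeR was found for 21 of the 30 and for 4194 of the 15944 genes. The lowest p of the 30 belonged to Igtp (1.06, edgeR adjusted p = 0.064), Ifi35 (0.83), Iigp1 (1.6) and Ifih1 (0.52). The interferon gamma receptor genes Ifngr1 (0.87, edgeR adjusted p = 0.072) and Ifngr2 (0.85, adjusted p = 0.0796) were also higher on average in Old-OSK without passing. The summed level of the stimulated genes was 611.1 to 845.5 CPM in Young, 1017 to 1485 in Old, 895.8 to 1300 in Old-Control and 1372 to 1701 in Old-OSK.

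Class II genes, which present to CD4 T cells and mark professional presenting cells, were higher in Old for 4 of 9 tested, against 5.4% of all genes. The 4 were H2-Ab1 (1.59), H2-Eb1 (1.33), Cd74 (1.5) and H2-Aa (1.41), and the median of the 9 was 1.33. With OSK none of the 9 was called (median 0.37), beside 0.728% of all genes. Their summed level, 40.5 to 72.19 CPM in Young and 130 to 184.3 CPM in Old-OSK, was a small fraction of that of class I.

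Markers of other cells that carry class I moved with age as well. Of 18 macrophage and microglia markers, 13 were higher in Old than in Young (5.4% of all genes) and none lower (4.16%). Their median log2 fold change was 1.77. Lyz2 (3.32), Ctss (2.90), Cd68 (1.65) and Trem2 (2.71) had the lowest p. The summed level of the 18 was 527.5 to 701.9 CPM in Young, 833.9 to 1339 in Old, 991.7 to 1216 in Old-Control and 942.5 to 1128 in Old-OSK, and no marker was at 0 in any library. Csf1r made up most of the Young sum, at 493.6 CPM on average. Without Csf1r, a choice made after its level was seen, the sums were 82.01 to 126.4, 391.7 to 889.4, 532.7 to 845.8 and 726.3 to 901.5 CPM. The part of these cells in the class I differences was not tested.

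Between Old-OSK and Old-Control none of the 18 macrophage markers was called, beside 0.728% of all genes. A fold change above 0 was found for 15 of 18 (median 0.391), against 47.1% of all genes. The summed levels of the markers overlapped with or without Csf1r. Cd68 had the lowest p (0.70, adjusted p = 0.0597 in edgeR), and Csf1r, the most abundant, went the other way, from 387.9 to 198.4 CPM (-0.97, adjusted p = 0.0856). The part of these cells in the OSK values of the class I genes was not tested. For 5 macrophage markers the OSK change was smaller than the age change by a called difference, among them Lyz2 (-3.43, SE 0.38, adjusted p = 0.000631 in edgeR), Trem2 (-2.43), Ctss (-2.42) and Tyrobp (-2.51). The OSK values of the last 3 were above 0 without passing (0.28, 0.48 and 0.38). T and natural killer cell markers (9 tested) were called in neither comparison and summed to 1.712 to 14.23 CPM in Young and 3.201 to 21.3 CPM in Old-OSK, with Klrb1c and Ncr1 at 0 in 5 and 6 of the libraries and the other 9 markers in the table at 0 in none. Of the B cell markers, Ms4a1 was at 0 in 5 libraries and Cd79a and Cd79b in none. Cd79b was at 1.89 with age and 1.15 with OSK, and Cd79a at -0.16 and 0.99, none of them called. None of 10 endothelium, 10 rod or 8 Müller glia markers was called in either comparison. Of all genes, 9.56% were called with age and 0.728% with OSK. With age all 10 rod markers (median 1.4) and all 10 endothelium markers (median 0.759) had fold changes above 0, against 49.3% of all genes. With OSK 1 of 10 in each list did (medians -0.153 and -0.265), against 47.1% of all genes. Of 20 RPE markers, 3 (Tyr, Pmel and Tyrp1) were lower in Old than in Young, against 4.16% of all genes, and the median of the 20 was -0.467. With OSK none of the 20 was called, beside 0.728% of all genes, and the median was -0.758. In edgeR 14 of 20 had an unadjusted p under 0.05, as did 4194 of the 15944 genes. Pmel (0.73), Tyrp1 (0.50) and 2 others, however, were above 0 with OSK. Of 10 stroma markers 2, Col1a2 and Pdgfrb, were lower in Old, against the same 4.16%. The part of these shifts in the class I levels was not tested.

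**Figure D4:**
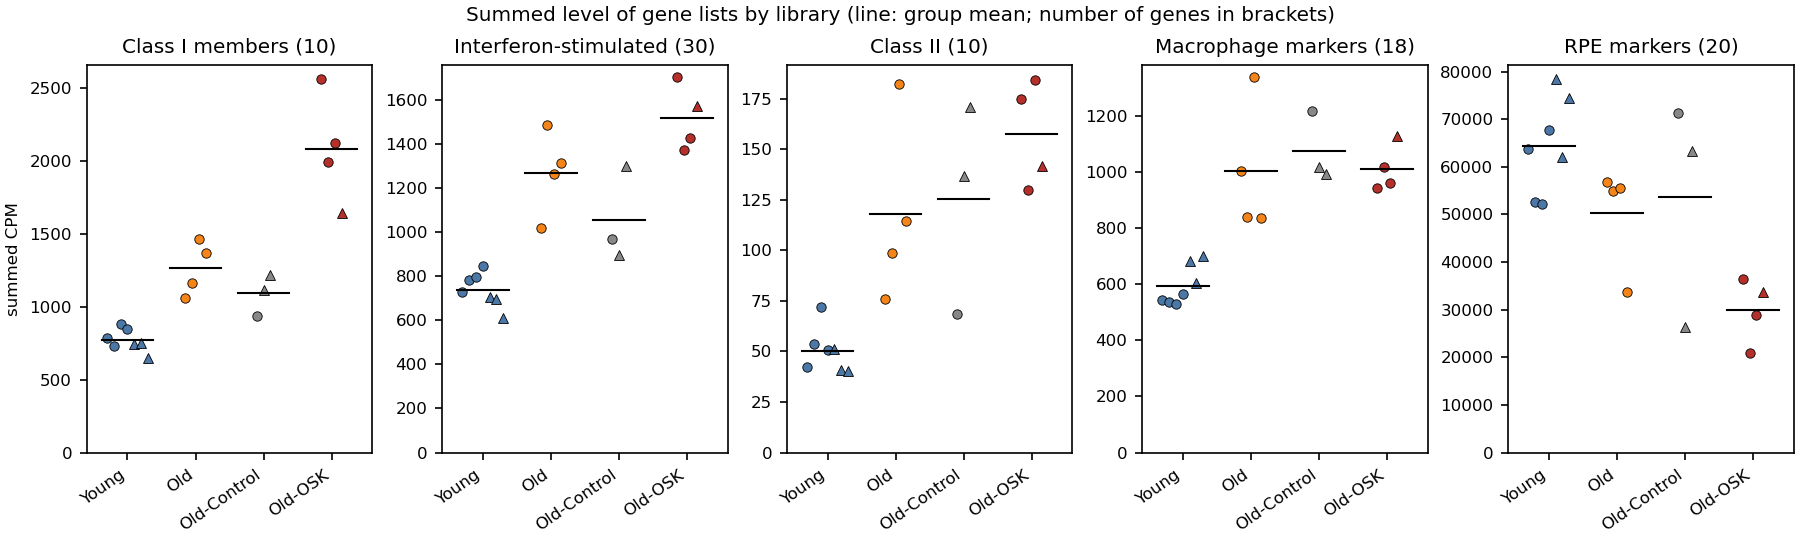
Summed CPM of the 10 class I genes and of interferon-stimulated genes, class II genes, macrophage and microglia markers and RPE markers in every library (5 panels, linear axes from 0; triangles, libraries with M in their names; line, group mean). The class I sum is 1643 to 2561 CPM in Old-OSK and 651.4 to 881.5 CPM in Young.

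The genes whose levels ran most like the class I genes were ranked by Pearson's r between their log2 CPM and the mean standardized level of the 10 over the 18 libraries, among 10225 other genes whose log2 CPM averaged 3 or more. The closest were Cebpa (r = 0.968), a transcription factor of myeloid and other differentiated cells, Irf7 (0.958), a driver of type I interferon genes, Shisa5 (0.957), Cdkn1a (0.946), the cell-cycle inhibitor p21, and Fbl (0.944), the nucleolar RNA methyltransferase fibrillarin. Cebpa stood at 8.183 CPM in Young, 20.74 in Old, 15.22 in Old-Control and 31.27 in Old-OSK, and Cdkn1a at 11.2, 33.13, 25.8 and 104.4 CPM. Both followed the group order of the class I genes. These likenesses were ranked on the same libraries and carry no test.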

How the data were processed

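The authors deposited raw counts per gene for all 18 libraries in 1 table, with STAR 2.7.1a and featureCounts 1.6.2 and the builds GRCm38 (mm10) and GRCh38 (hg38) named per the submitters' processing notes. Per the labels' protocols, SMART-Seq v4 cDNA of TRIzol-extracted RNA was tagmented with Nextera XT. The annotation and strand setting are not given in the sources used here. Reads were PCR-amplified, so counting error is a lower limit of the error.

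With edgeR 4.0.16, filterByExpr at a minimum count of 10 and a total of 15 left 15944 genes, all 10 followed here among them. Counts were scaled by TMM and fitted with 4 group means over 18 libraries (glmQLFit and glmQLFTest, R 4.3.3). P-values were adjusted by Benjamini-Hochberg over all genes, and a gene is called at an adjusted p under 0.05. CPM uses TMM-scaled totals. Ratios used counts plus 0.5. Fits were tested on simulated counts, drawn independently for each gene and library. That simulation held no differences between libraries that many genes share, so it does not bear on how calls depend on single libraries. Each pair of replicates differed beyond sampling noise, by a chi-square per gene of 20.2 or more. The members and lists were chosen with earlier results of these data known. Beside the 10 genes and the proteasome pairs, up to 4 genes per list with the lowest p in a comparison are named, and the 5 most similar genes. Klrb1c, Ncr1 and Ms4a1 were named after their values were seen. Some genes that meet these rules are not reported here. Of the listed symbols, 7 had no row in the table.

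Old-OSK and Old-Control libraries with the same number deviated from their groups with r = 0.103, 0.421 and 0.339 across genes. Libraries with unequal numbers had r from -0.34 to 0.392. Old-OSK replicate 1 was closer to Old-Control replicate 3 (0.392) than to Old-Control replicate 1 (0.103). Numbers 2 and 3 join an Old-Control library with M to an Old-OSK library without. The numbers were treated as pairs there as an alternative only, and these values do not establish a pairing. The labels give no reason for a pairing. Alternatives were DESeq2 1.42.0, its size factors in edgeR, no filter, robust empirical Bayes, the 2 groups alone, M as a covariate, no M libraries, a replicate block and leaving out each library. Where the block left out libraries, the same libraries without the number were added after seeing the data.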

Additional observations from a re-analysis of the deposited data

Results flagged for a closer look

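The Tap2 level of Young replicate 3, 35.14 CPM, lay far above the other 6 Young libraries, and its gap to the next library took 0.571 of the group's range. It was 1 of 39 groups of values examined in this way, and chance sets apart about 1 in 20. The same library was the highest of its group for 8 of the 10 class I genes. It is the library that makes Tap2 overlap between Young and Old.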

How the results depend on the processing

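The number of class I genes called in Old against Young was 7, and it was 2 without the M libraries and 0 with a replicate block, against 2 in the same libraries with the number not in the model. Leaving out 1 library gave 3 to 7. In Old-OSK against Old-Control the number was 1, and it was 0 with M as a covariate, 0 in the 2 groups alone, 5 without the M libraries (1 control left, assumed to vary like the other groups), 4 in the paired libraries with the number not in the model, 7 with DESeq2 and 0 to 6 with 1 library left out. The replicate block kept the number at 1 but changed the gene from B2m to Tap1, and it changed no other call in that comparison. It used 3 pairs there and 4 in Old against Young, where equally numbered libraries did not deviate together (r -0.0497, -0.0191, 0.144 and -0.193). The other alternatives left both numbers within 1.5 times, and Old-Control against Old and the difference of the comparisons stayed at 0 in every fit. The log2 ratios in Old against Young were 1.45, 1.05 and 0.618 without the M libraries and the same with the replicate block, none passing, where 4 pairs cannot go below an exact p of 0.125. With 1 library left out they ranged from 1.73 to 2.51 for Psmb8 to Psmb5, 1.19 to 1.86 for Psmb9 to Psmb6 and 0.639 to 0.973 for Psmb10 to Psmb7. Uncalled values changed sign in 2 comparisons. In Old-Control against Old, B2m was 0.038 with M as a covariate and 0.085 without the M libraries. With 1 library left out, B2m ranged there from -0.12 to 0.095, Tapbp from -0.33 to 0.063 and Nlrc5 from -0.58 to 0.48. In the difference of the comparisons without the M libraries, H2-K1 was 0.65, H2-D1 0.44, H2-T23 1.14, Tap2 0.11, Psmb8 0.76, Psmb9 0.87 and Nlrc5 0.75. With 1 library left out, H2-K1 ranged there from -0.35 to 0.043, H2-T23 from -0.30 to 0.26, Tap1 from -0.014 to 0.32, Psmb9 from -0.53 to 0.056 and Nlrc5 from -0.53 to 0.37. The causes were not tested. The lowest counts of Nlrc5 and Psmb9 in a Young library were 18 and 26.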
